A study of Mus musculus with 2 samples.

Results

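The 52 genes described here are transcribed in waves through the cell cycle: 25 belong to DNA synthesis (S phase) and 27 to G2 and mitosis (G2/M). They were taken from a fixed list of symbols, and all 52 were found among the 27998 genes of both matrices. They were measured by droplet single-cell RNA sequencing (10x Genomics Chromium, Illumina NovaSeq) in mouse iPSCs, which are body cells brought back to pluripotency by reprogramming. The first library was made from SRFΔ/Δ iPSCs (knockout), in which both alleles of Srf are deleted. The other was made from SRFf/f iPSCs (wild type), which carry the floxed, unrecombined alleles. Both were grown with serum, and the labels name neither the Cre used nor the number of clones. SRF (serum response factor) is a transcription factor that binds CArG boxes and acts on immediate early and actin cytoskeleton genes.

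With 1 library per genotype there is no replicate check, no p-value and no error between cultures. Every interval below is an exact 95% interval of counting error only, and every difference is one between these libraries. Levels are CPM, the gene's unique molecular identifiers (UMIs) per 1000000 UMIs in the pooled kept cells of each library. Kept cells had at least 1000 detected genes, 1 to 10% mitochondrial UMIs and fewer than 5 UMIs of Col1a2, Col3a1 and Acta2 together. Cells under 1% mitochondrial UMIs numbered 246 in knockout and 17 in wild type and were left out. The filters left 731 of 1073 knockout cells with 18203451 UMIs and 893 of 954 wild-type cells with 23270714 UMIs. Median depth was 24423 UMIs per knockout cell and 26656 per wild-type cell. Srf itself had 3 UMIs (0.165 CPM) in the knockout cells and 202 (8.68 CPM) in the wild-type cells. All 15 pluripotency markers examined were detected in both libraries (10629 CPM summed in knockout, 14432 in wild type). Dppa5a alone gave 6777 CPM in knockout and 10272 in wild type. Zfp42 (108.0 and 78.1 CPM), Klf5, Sall4, Lin28a and Tdh were higher in knockout, and the other markers were lower. The libraries were not alike in their makeup. Primitive endoderm markers, 10 of 10 detected in both, summed to 457 CPM in knockout and 15.6 in wild type. Fibroblast markers summed to 27.4 and 26.9 CPM (11 and 10 of 11 detected, Lum at 0 in wild type), macrophage markers to 85.1 and 35.2 CPM (6 of 6 detected in both) and erythroid markers to 0.165 and 0.258 CPM (Hbb-bs at 0 in both). The fibroblast list includes Col1a2, Col3a1 and Acta2, by which cells were left out, so low levels of these 3 in kept cells follow from the filter. Its genes went both ways: Tagln (2.58 and 8.64 CPM) and Dcn (0.439 and 1.72) were lower in knockout. Thy1 (10.2 and 5.24 CPM) and Acta2 (2.36 and 0.43) were higher there. The part of these other cell types in the ratios below was not tested, except where values without such cells are given. The libraries shared 2 cell barcodes, 1 of them among kept cells.

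Before S phase the MCM helicase is loaded at replication origins (licensing) and is then fired, and geminin blocks a repeated loading. E2F factors drive many of the genes for helicase, polymerase clamp and nucleotide supply. Later, cyclin B with CDK1 drives entry into mitosis, spindle motors and kinetochore proteins move the chromosomes, and the anaphase-promoting complex ends mitosis by having cyclins degraded. G2/M genes often carry CCAAT boxes and a cell cycle homology region (CHR) bound by the MuvB complexes. Pluripotent stem cells cycle fast, with a short G1 phase, so many of their cells are in S phase at any time.

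The promoters of 20 S genes and 24 G2/M genes were available from RefSeq (GRCm38.p6), as 22 and 25 windows from 250 bases before to 50 after the annotated start. Motifs were searched by their letters on both strands. The sequences shown are among those of the genes whose level followed their own list most closely in both libraries, and Rpa2 as the closest follower whose window holds TTCCCGC. Capitals mark motif matches, each line runs 5′ to 3′ on the gene's strand, and overlapping matches share letters, as where the E2F-like GCGCCAA (the reverse complement of TTGGCGC) and CCAAT overlap in Ccnb1. Rrm2 lies at chr12:24708004-24708303 (plus strand), Nasp at chr4:116627902-116628201 (minus), Rpa2 at chr4:132768110-132768409 (plus), Ube2c at chr2:164769679-164769978 (plus) and Ccnb1 at chr13:100786437-100786736 (minus).
Rrm2: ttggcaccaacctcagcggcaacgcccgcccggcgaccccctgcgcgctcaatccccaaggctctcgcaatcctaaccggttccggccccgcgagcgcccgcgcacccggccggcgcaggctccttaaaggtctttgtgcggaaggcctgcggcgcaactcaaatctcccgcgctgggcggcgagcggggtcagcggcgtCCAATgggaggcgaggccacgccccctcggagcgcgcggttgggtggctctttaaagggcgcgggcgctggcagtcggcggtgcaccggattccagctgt
Nasp: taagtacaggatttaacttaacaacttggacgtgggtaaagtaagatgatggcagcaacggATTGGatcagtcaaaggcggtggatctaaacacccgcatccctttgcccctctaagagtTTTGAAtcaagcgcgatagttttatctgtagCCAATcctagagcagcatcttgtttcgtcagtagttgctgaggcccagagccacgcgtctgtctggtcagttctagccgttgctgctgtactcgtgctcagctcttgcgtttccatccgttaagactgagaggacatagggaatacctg
Rpa2: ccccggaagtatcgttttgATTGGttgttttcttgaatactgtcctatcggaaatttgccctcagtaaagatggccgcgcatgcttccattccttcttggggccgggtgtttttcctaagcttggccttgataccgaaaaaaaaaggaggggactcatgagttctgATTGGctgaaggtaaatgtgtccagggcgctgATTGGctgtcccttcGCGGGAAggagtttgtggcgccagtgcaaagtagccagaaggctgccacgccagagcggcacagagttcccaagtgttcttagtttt
Ube2c: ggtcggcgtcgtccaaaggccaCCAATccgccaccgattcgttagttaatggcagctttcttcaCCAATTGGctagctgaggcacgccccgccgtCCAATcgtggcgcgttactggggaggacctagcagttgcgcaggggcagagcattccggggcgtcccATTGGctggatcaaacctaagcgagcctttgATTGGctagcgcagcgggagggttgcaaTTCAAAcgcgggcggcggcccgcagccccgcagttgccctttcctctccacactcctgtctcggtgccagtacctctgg
Ccnb1: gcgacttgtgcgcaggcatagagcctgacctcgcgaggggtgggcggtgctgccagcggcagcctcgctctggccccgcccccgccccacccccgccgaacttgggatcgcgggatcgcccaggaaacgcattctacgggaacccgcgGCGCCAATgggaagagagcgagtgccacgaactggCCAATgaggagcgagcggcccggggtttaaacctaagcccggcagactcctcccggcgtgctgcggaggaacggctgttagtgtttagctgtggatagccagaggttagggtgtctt

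The E2F-like motif TTCCCGC was found in 8 of the 22 S windows (36.4%), in 0 of the 25 G2/M windows and in 4.60% of all 32851 mouse promoters of this length. The S genes holding it were Mcm3, Mcm7, Rrm1, Cdc6, Cdt1, Rpa2 and Dtl, with Mcm7 in both of its windows. TTGGCGC was found in 6 S windows (27.3%), 5 G2/M windows (20.0%) and 2.45% of all promoters. CCAAT stood in 15 S windows (68.2%) and 20 G2/M windows (80.0%), against 37.4% of all. The CHR motif TTTGAA showed the reverse split from TTCCCGC: 4 S windows (18.2%), 18 G2/M windows (72.0%) and 17.9% of all promoters. Ube2c held CCAAT several times and TTTGAA once, as its line above shows, whereas Ung and Nusap1 held none of these motifs. The CArG box was found in 1 S window (Tyms) and 1 G2/M window (Kif20b), against 1.63% of all promoters. A match describes letters in a window and shows no binding, and a window without one says nothing of the factor.

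Both lists were present at close to the same summed level in knockout and wild-type cells. The 25 S genes summed to 2558 CPM (2535 to 2581) in knockout and 2447 CPM (2427 to 2467) in wild type, a log2 ratio of 0.06 (0.05 to 0.08). For the 27 G2/M genes the sums were 3193 CPM (3168 to 3219) and 3132 CPM (3109 to 3155), a log2 ratio of 0.03 (0.01 to 0.04). Gene by gene, 51 of the 52 members averaged 10 CPM or more between the libraries and entered the counts. Their median log2 ratio (knockout over wild type) stood at 0.10 for 24 S genes (range -0.24 to 0.35) and 0.07 for the 27 G2/M genes (range -0.13 to 0.57), beside 0.09 over all 6554 genes of that level. Of the 51 members, 3 were at least 1.3-fold higher in knockout, where 17.3% of all genes were, and 0 were at least 1.3-fold lower, where 6.77% of all genes were. The members' shares were below these background shares in both directions, and that difference was not tested. Of all 52 members, with Ccne2 (under 10 CPM) included, counting intervals of 25 lay wholly above a log2 ratio of 0 and those of 7 wholly below. The share of all genes with such intervals is not given here, so nothing is read from these counts. Of the 51 members, 26 lay above the median of all genes. Of all 6554 genes, 3996 lay above a log2 ratio of 0 and 2558 below. These stand beside the counts by role that follow, and nothing is read from a role's count as particular to it.

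Scaling sets where 0 lies. With TMM or median-of-ratios factors the median of all genes moved from 0.09 to -0.02 and -0.03, and the list medians moved with it (S to -0.01 and -0.02, G2/M to -0.04 and -0.05). Member ratios near 0 therefore take either sign, and a position relative to the median of all genes is what these data give. That position itself shifted with the genes and cells taken. Counting only genes that averaged 50 CPM or more, the all-gene median was 0.02, below S (0.09) and G2/M (0.07). Keeping the fibroblast-UMI cells put it at 0.09, above S (0.06) and G2/M (0.03). In cells of 15000 UMIs or more it was 0.09, between S (0.11) and G2/M (0.02).

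**Figure D1:**
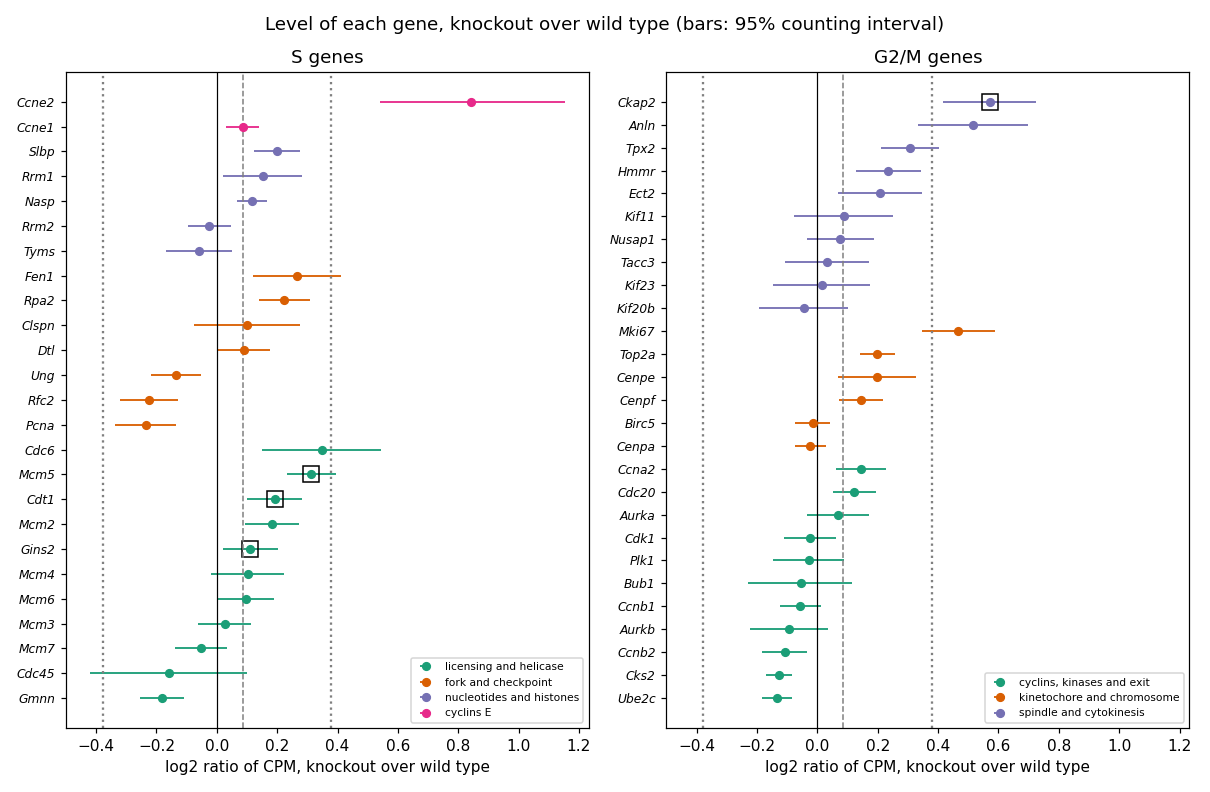
Log2 ratio of CPM, knockout over wild type, for each S gene (left) and G2/M gene (right), coloured by role, with 95% counting intervals. Dotted lines mark 1.3-fold, the dashed line the median of all genes, and open squares genes on chromosome 8; Ccne2 (under 10 CPM), Ckap2, Anln and Mki67 are past 1.3-fold.

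Among the 11 licensing and helicase genes the median log2 ratio was 0.10, with 8 above 0 and 3 below. Mcm5, a helicase subunit, stood at 132.8 CPM in knockout and 106.9 in wild type (log2 ratio 0.31, 0.23 to 0.39). Cdc6, a loader of the helicase, stood at 23.3 and 18.3 CPM (0.35, 0.15 to 0.54). The other loader Cdt1 was at 103.4 and 90.6 CPM. The remaining Mcm genes were closer to equal, from -0.05 for Mcm7 (105.2 and 109.2 CPM) to 0.18 for Mcm2 (105.4 and 92.9 CPM). Gmnn, which encodes the inhibitor geminin, was lower in knockout, at 140.9 CPM against 159.8 (-0.18, -0.25 to -0.11). Gins2 and Cdc45, helicase cofactors, had ratios of 0.11 and -0.16, and the interval of Cdc45 (-0.42 to 0.10) spans 0 at 210 and 300 UMIs. The sum over the role was 974 CPM in knockout and 923 in wild type.

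The 7 fork and checkpoint genes were split, with 4 above and 3 below 0 and a median of 0.09. Those below included the sliding clamp Pcna, at 72.1 CPM in knockout and 84.9 in wild type (-0.24, -0.34 to -0.13), which was the lowest ratio of all members. The clamp loader subunit Rfc2 (79.7 and 93.1 CPM) and the uracil glycosylase Ung (109.9 and 120.6 CPM) stood below 0 too. Above 0 were the flap nuclease Fen1 (41.4 and 34.4 CPM) and the single-strand binding subunit Rpa2 (118.5 and 101.5 CPM). Dtl, part of the ligase that has Cdt1 degraded, and the checkpoint mediator Clspn differed little (0.09 and 0.10). The median of this role turned below 0 in 5 alternatives: with no lower mitochondrial limit (-0.09), without cells of raised chromosome 8 share (-0.04), with each cell weighted alike (-0.0039) and with TMM or median-of-ratios factors (-0.02 and -0.03).

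Nucleotide and histone supply genes had a median ratio of 0.12. Slbp, which binds histone mRNA stem loops, was at 147.7 CPM in knockout and 128.7 in wild type (0.20, 0.12 to 0.27), and the histone chaperone Nasp at 327.5 and 301.8 CPM. The ribonucleotide reductase subunits Rrm1 and Rrm2 had ratios of 0.15 and -0.03, and thymidylate synthase (Tyms) -0.06. Of the cyclins E, which drive entry into S phase with CDK2, Ccne1 was at 274.4 and 258.7 CPM. Ccne2 had the highest ratio of the members (0.84, 0.54 to 1.15), but from 215 and 153 UMIs (11.8 and 6.57 CPM), a mean under 10 CPM, so it is outside the counts.

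Within G2/M the roles had medians on either side of 0. Over the 27 G2/M genes the log2 ratio had a Spearman rho of 0.54 with the longest annotated transcript (0.31 over all genes). The part of transcript length in the differences between roles was not tested. Of the 11 cyclins, kinases and mitotic exit genes, 8 lay below 0, with a median of -0.06 and summed levels of 1627 CPM in knockout and 1692 in wild type (-0.06, -0.08 to -0.03). Ube2c, the ubiquitin-conjugating enzyme of the anaphase-promoting complex, stood at 310.4 CPM in knockout and 340.4 in wild type (-0.13, -0.18 to -0.08). Cks2, a small CDK subunit, stood at 411.3 and 448.8 CPM, and Ccnb2 at 139.5 and 150.4 CPM. Ccnb1 (170.5 and 177.4 CPM) and its kinase Cdk1 (104.9 and 106.7 CPM) had intervals that include 0. Cyclin A2 (Ccna2, 117.6 and 106.4 CPM) and the exit activator Cdc20 (163.3 and 150.1 CPM) stood above 0, as did the kinase Aurka at 0.07. Plk1, Aurkb and Bub1 lay between -0.09 and -0.03, and their intervals and that of Aurka include 0. The median of these 11 genes took the other sign with each cell weighted alike (0.07, 7 of 11 above 0) and with no lower mitochondrial limit (0.12, 8 of 11).

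The 6 kinetochore and chromosome genes had a median of 0.17. Mki67, which coats mitotic chromosomes and is widely used as a proliferation marker, was at 63.0 CPM in knockout and 45.6 in wild type (0.47, 0.35 to 0.59). Topoisomerase Top2a was at 255.5 and 222.6 CPM (0.20, 0.14 to 0.26), the kinetochore protein Cenpf at 154.3 and 139.7 CPM, and the kinetochore motor Cenpe at 50.6 and 44.2 CPM. The centromeric histone gene Cenpa (312.0 and 317.0 CPM) and Birc5 (survivin, 242.6 and 245.4 CPM) were within counting error of equal.

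Of the 10 spindle and cytokinesis genes, 9 lay above 0, with a median of 0.15 and sums of 488 CPM in knockout and 426 in wild type (0.20, 0.16 to 0.24). Ckap2, a microtubule-associated protein, was at 40.7 and 27.4 CPM (0.57, 0.42 to 0.73). Anln, which encodes the cytokinetic ring protein anillin, was at 28.7 and 20.1 CPM (0.51, 0.33 to 0.70). Tpx2, a spindle assembly factor that activates Aurora A, was at 93.8 and 75.8 CPM (0.31, 0.21 to 0.40), and the spindle protein Hmmr at 74.5 and 63.3 CPM (0.24, 0.13 to 0.34). Ect2, an activator of RhoA at cytokinesis, was at 43.9 and 38.1 CPM. The motors Kif11, Kif20b and Kif23, with Nusap1 and Tacc3, had ratios from -0.05 to 0.09 and intervals that include 0. With TMM factors 5 of the 10 lay above 0 and the role's median was 0.04, against -0.02 for all genes.

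The 3 genes past 1.3-fold are protein-coding: in GRCm38, Ckap2 (ENSMUSG00000037725) lies on chromosome 8 from 22168160 to 22185819, Anln (ENSMUSG00000036777) on chromosome 9 from 22332012 to 22389188 and Mki67 (ENSMUSG00000031004) on chromosome 7 from 135689784 to 135716361, all on the minus strand. Ckap2 was past it under every alternative choice of cells, scaling or weighting tried, from 0.42 to 0.64. Anln was past it under each of them but 1, with 0.33 when cells under 1% mitochondrial UMIs were included. Mki67 was not past it with those cells (0.30), without cells carrying the primitive endoderm list (0.28), with TMM factors (0.36) or with median-of-ratios factors (0.35). Without cells of raised chromosome 8 share, Tpx2 (0.40) and Top2a (0.39) were past it too, but there the share of all genes that far higher was 23.4%, against 17.3% with those cells.

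Variation between cells was compared at equal depth. Each cell was thinned at random to 10562 UMIs, the 10th percentile of kept totals, which left 661 knockout and 800 wild-type cells and dropped 70 and 93 shallower ones. The squared coefficient of variation (CV2) less that of Poisson sampling is called excess variation here. Over the 19 S genes with at least 0.5 thinned UMIs per cell in both libraries, the median excess stood at 0.186 in knockout and 0.160 in wild type. It was higher over the 16 G2/M genes, at 0.328 and 0.325. For comparison it was 0.123 and 0.105 over all 2213 genes of that level, and 0.135 and 0.143 over 32 proteasome subunit genes, a complex that every cell keeps. Nusap1, a spindle microtubule protein, had the highest value of these 35 members in both libraries (0.861 and 0.560). Cenpf followed in knockout (0.685), and Ccnb1 in wild type (0.455). Values were low for Birc5 (0.087 and 0.040) and Mcm2 (0.110 and 0.089).

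Between genotypes CV2 differed little. On the log2 scale the median CV2 ratio, knockout to wild type, stood at -0.04 for S genes (8 of 19 higher in knockout) and -0.04 for G2/M genes (7 of 16), beside 0.03 over all genes, of which 54.4% were higher in knockout. Of the 35 members 1 was at least 1.3-fold higher in knockout, where 10.8% of all genes were, and 0 were that much lower, where 5.2% were. That gene was Ube2c, with a CV2 of 0.817 in knockout and 0.593 in wild type. Excess variation, which leaves out the Poisson part that dominates CV2 at these counts, gave median log2 ratios further from 0. They were 0.22 for S genes, the opposite sign from CV2, and -0.16 for G2/M genes. The same ratio over all genes is not given here, but their median excess was also higher in knockout (0.123) than in wild type (0.105). Nothing is therefore read from the S value as particular to S genes.

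Summed per thinned cell, the S genes gave a median of 27 UMIs in knockout (10th to 90th percentile 15 to 39) and 25 in wild type (15 to 37). The G2/M genes gave 32 (21 to 48) and 31 (19 to 47.1). The variance of these sums was 3.18 and 2.88 times the mean for S genes and 4.19 and 4.16 times for G2/M genes. The distributions overlapped over nearly their whole range and had a single broad peak. The same ratio was 7.22 and 7.12 for the proteasome sum, whose mean was larger (65.2 and 70.3 UMIs, against 26.9 and 25.8 for S and 33.3 and 32.5 for G2/M genes). This ratio depends on the mean, so the lists are not ranked by it.

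**Figure D2:**
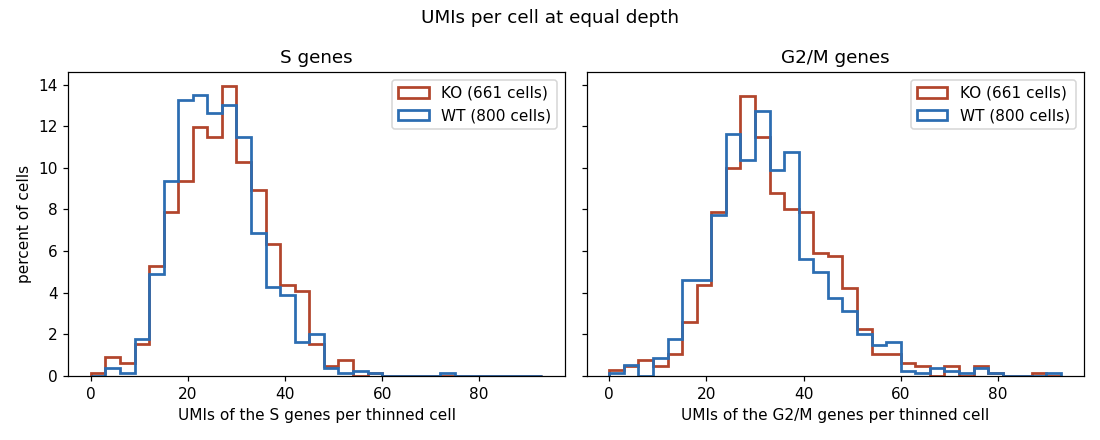
UMIs of the 25 S genes (left) and 27 G2/M genes (right) per cell after thinning to equal depth, as percent of the cells of each library. The knockout (661 cells) and wild-type (800 cells) outlines overlap, with medians of 27 and 25 UMIs for S genes and 32 and 31 for G2/M genes.

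Genes of the same list varied together from cell to cell more than genes of different lists, in both libraries. Correlations were Pearson's r on log2(thinned UMIs + 1) over the cells of a library. They share depth and library, single values are weak as counts are sparse, and they are descriptions without a test. Over 171 pairs of S genes the median r was 0.074 in knockout cells and 0.056 in wild-type cells. Over 120 pairs of G2/M genes it was 0.099 and 0.102, and over 304 pairs across the lists it was -0.001 and 0.002. All 2447578 gene pairs had medians of 0.007 and 0.005, and proteasome subunit pairs 0.118 and 0.124.

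The strongest pairs were in G2/M and centred on Ube2c, with Cks2 (r 0.281 in knockout, 0.268 in wild type), Nusap1 (0.282 and 0.255), Cdk1 (0.271 and 0.218) and Ccnb1 (0.278 and 0.216). Cenpf and Top2a, both chromosome genes, had 0.303 and 0.226. Cdc20 paired with Top2a at -0.115 in knockout and -0.028 in wild type, the lowest value within the G2/M list. Ordered by the smaller r of the libraries, the highest S pair was Ung and Ccne1 (0.267 and 0.159), a base excision repair gene and a G1/S cyclin, then Ung and Slbp (0.163 and 0.153). Nasp and Ccne1 came next by that order (0.218 and 0.138) and stood above Ung and Slbp in knockout. Across the lists, the pairs below -0.11 in both libraries were Slbp with Cenpf (-0.145 and -0.116), Ung with Cenpf (-0.116 and -0.138) and Ung with Ube2c (-0.122 and -0.128). Ung with Top2a was the lowest in wild type (-0.142) but stood at -0.060 in knockout.

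**Figure D3:**
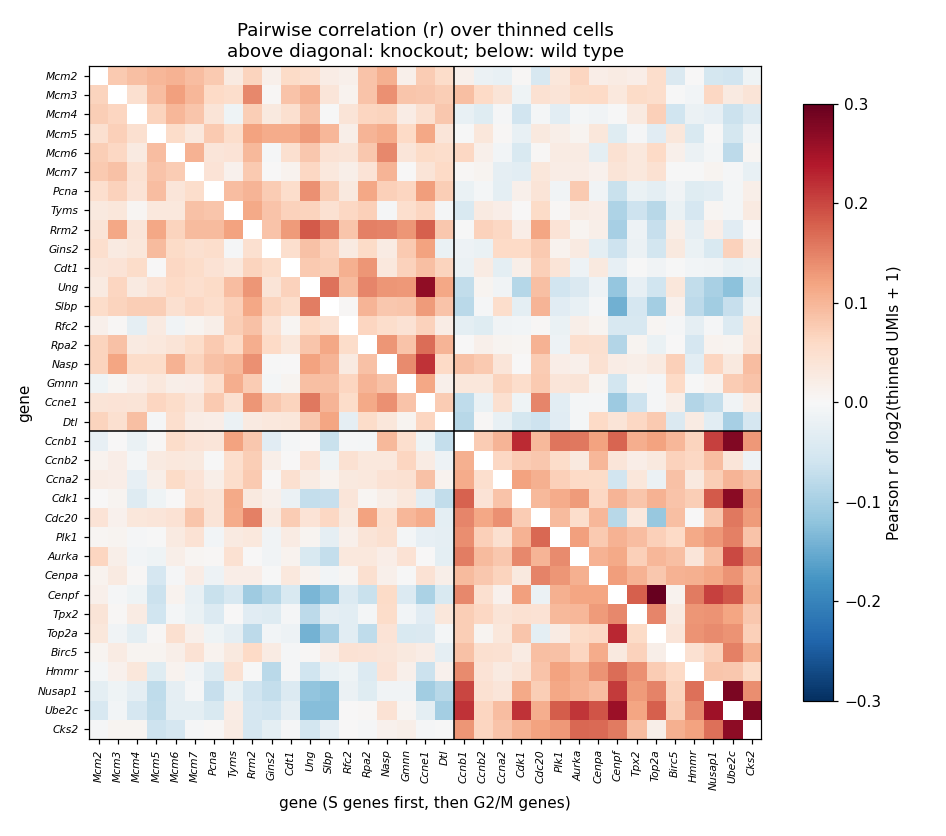
Pearson r of log2(thinned UMIs + 1) for each pair of the 35 members with at least 0.5 thinned UMIs per cell, knockout above the diagonal and wild type below, with S genes first. Both diagonal blocks are mostly positive, the block across the lists has medians of -0.001 and 0.002, and the darkest red cells include Ube2c with Cks2 and Nusap1 and, in knockout, Cenpf with Top2a.

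Each of the 52 genes was then set against the sum of the other genes of its list and the sum of the other list. In knockout 25 of 25 S genes and 26 of 27 G2/M genes followed their own list more closely, the exception being Cdc20 (r 0.147 with its own list, 0.176 with the S list). In wild type 24 of 25 and 27 of 27 did, with Rrm1 the exception (0.036 and 0.043). The median r with the own list was 0.183 in knockout and 0.162 in wild type for S genes, and 0.203 in both for G2/M genes. Ube2c was highest of all in both libraries (0.419 and 0.437), with Ccnb1 at 0.352 and 0.312 and Nusap1 at 0.329 and 0.324. Among S genes Rrm2 was highest in both (0.341 and 0.278). Nasp followed the G2/M list too (0.148 and 0.116). Ung, Slbp and Cenpf were negative with the other list in both libraries.

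**Figure D4:**
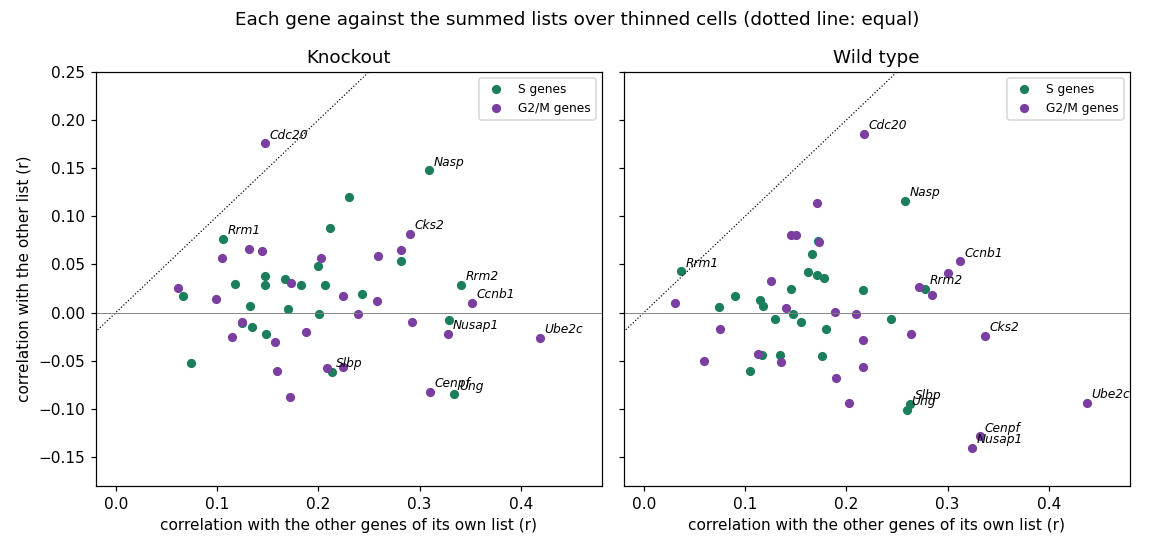
Each gene's Pearson r with the summed other genes of its own list (x) and with the other list (y) over thinned cells, knockout left and wild type right. Points below the dotted line follow their own list more closely; in knockout Cdc20 lies above it and in wild type Rrm1.

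The size of this swing was taken as the mean thinned UMIs of a gene in the 25% of cells with most UMIs of the other genes of its list over that in the 25% with fewest. Its median was 1.71-fold in knockout and 1.58-fold in wild type for S genes, and 1.89-fold and 1.88-fold for G2/M genes. Nusap1 swung most among G2/M genes (3.75-fold and 3.55-fold). Ung swung 2.84-fold in knockout and 1.88-fold in wild type, and Rrm2 2.36-fold and 2.11-fold. Birc5 swung little (1.28-fold and 1.29-fold). For the G2/M list in wild type the median raw depth was 29909 UMIs in the 25% of cells highest in its sum and 25684.5 in the 25% lowest, against 25809 and 25499 in knockout. The part of this in the swing was not tested.

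The S and G2/M sums of a cell correlated at 0.173 in knockout (0.149 to 0.196 over 10 thinnings) and 0.063 in wild type (0.031 to 0.096). These are weak values, with 1 library each their difference has no test, and their sign rested on few cells. Kept cells under 1000 CPM in both lists numbered 11 in knockout and 8 in wild type, of which 8 and 4 were deep enough to be thinned. Without them the values were -0.122 (-0.155 to -0.103) and -0.067 (-0.089 to -0.031). These cells were picked after the data were seen and by the same sums, a choice that by itself tends to lower r. In wild type the sign turned also without cells of the primitive endoderm list (-0.019). With the fibroblast-UMI cells kept the values were 0.549 and 0.256, and with at least 15000 UMIs per cell 0.050 and 0.003.

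The medians over pairs moved less without the cells low in both lists, to 0.067 and 0.052 within S, 0.080 and 0.096 within G2/M and -0.013 and -0.003 across the lists. Of the S genes, 25 of 25 in knockout and 24 of 25 in wild type still followed their own list more closely, and of the G2/M genes 26 and 27 of 27, with the same exceptions, Cdc20 and Rrm1. Nasp stood lower with the G2/M list there (0.030 and 0.078), and in knockout Ung (0.330) was above Rrm2 (0.324) with the S list.

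Outside the 52 genes, 2178 candidates were ordered by the smaller of the libraries' r with each sum. Those that followed the S sum most closely were Ran (0.329 and 0.367), a GTPase of nuclear transport, Hmgb2, the histone variant H2afz, Hsp90aa1, Set, Tuba1b, Ptma and Srsf2. In knockout, genes that stood above Ran included H2afz (0.488) and Ptma (0.454). Those closest to the G2/M sum were Arl6ip1 (0.359 and 0.380), the spindle checkpoint gene Bub3 (0.286 and 0.239), the midzone bundler Prc1 (0.260 and 0.239), Hmgb2, Tubb4b, Calm2, the condensin gene Smc4 and Hn1. Hmgb2, a chromatin protein gene, was the 1 gene named for both lists. The correlations of these outside genes were not recomputed without the cells low in both lists.

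The rest of the cell cycle machinery was read from lists of other genes. Of 41 other replication genes with at least 10 CPM, 5 were 1.3-fold higher and 2 lower in knockout, with a median of 0.05. Beside these counts, and those of the lists that follow, stand the shares over all genes given above, 17.3% higher and 6.77% lower, and nothing is read from a list's count as particular to it. The highest were Wdhd1 (20.3 and 13.7 CPM), the polymerase alpha subunit Pola2 (46.5 and 32.8 CPM) and the origin recognition subunit Orc2 (56.5 and 41.0 CPM). The lowest were the clamp loader subunit Rfc4 (43.2 and 63.1 CPM), the chromatin assembly subunit Chaf1b (31.5 and 43.7 CPM) and Pold2 (58.2 and 72.6 CPM). Of 56 other mitotic genes 7 were higher and 1 lower, with a median of 0.05. These ran from Hjurp (0.55), the loader of Cenpa, Kif4 (0.49) and Gtse1 (0.44) to Cdca3 (-0.38), Ndc80 (-0.37) and Pkmyt1 (-0.37).

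Among genes that govern entry into the cycle, Myc and Ccnd2 were over 2-fold higher in knockout. Of 20 G1 and G1/S control genes with at least 10 CPM, 6 were higher and 2 lower (17.3% and 6.77% over all genes), with a median of 0.04. Myc, a growth-promoting transcription factor, was at 19.3 CPM in knockout and 7.005 in wild type (1.46, 1.19 to 1.74), and the D-type cyclin Ccnd2 at 23.8 and 10.8 CPM (1.13, 0.91 to 1.37). Myc averaged 10 CPM or more only through knockout, so its place among the 6 rests on the library where it was high. Another D-type cyclin, Ccnd3, stood the opposite way, at 212.7 and 314.8 CPM (-0.57, -0.62 to -0.51). The S-phase activator E2f1 was at 36.2 and 50.4 CPM (-0.48), and the late repressor E2f8 at 23.3 and 17.1 CPM (0.45). Tfdp2 had -0.14. Of 13 p53 target genes 3 were higher and 0 lower, against the same shares over all genes: Sesn2 (38.5 and 20.6 CPM), the p53 ligase Mdm2 (70.6 and 39.2 CPM) and Pmaip1 (47.7 and 32.2 CPM). At the other end were Bax (-0.24), Trp53inp1 (-0.09) and Bbc3 (-0.07).

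The 4 members Mcm5, Gins2, Cdt1 and Ckap2 lie on chromosome 8, whose 380 genes of at least 10 CPM had a median ratio of 0.29. Cells whose chromosome 8 share, computed without the members, was over 1.2 times the wild-type median numbered 370 in knockout (50.6%) and 88 in wild type (9.85%), and 60 and 33 cells had shares from 1.1 to 1.3 times. These are ranges of a measured share, not labelled groups. In such cells the 4 genes summed to more than in the remaining cells of the same library, by a log2 ratio of 0.45 (0.38 to 0.52) in knockout and 0.41 (0.31 to 0.51) in wild type. The other 48 members stood at -0.07 and -0.05. Among cells of usual share the 4 genes had a knockout over wild-type ratio of 0.04 (-0.02 to 0.11). Mcm5 went from 0.31 to 0.10 there, Gins2 from 0.11 to -0.15 and Cdt1 from 0.19 to 0.01, whereas Ckap2 stood at 0.47 (0.26 to 0.68). Among cells of raised share the order differed. The knockout over wild-type ratio there was 0.36 (0.17 to 0.55) for Mcm5 and -0.003 (-0.31 to 0.32) for Ckap2. Gins2 stood at -0.02 and Cdt1 at -0.09 in those cells. The spindle genes without cells of raised share had a median of 0.32, with 10 of 10 above 0, and the kinetochore and chromosome genes 0.32, with 6 of 6. The median over all genes was 0.10 there, and their share above 0 is not given here. Without primitive endoderm list cells as well, the medians were 0.30 (8 of 10 above 0) and 0.26 (6 of 6), beside 0.07 over all genes.

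**Figure D5:**
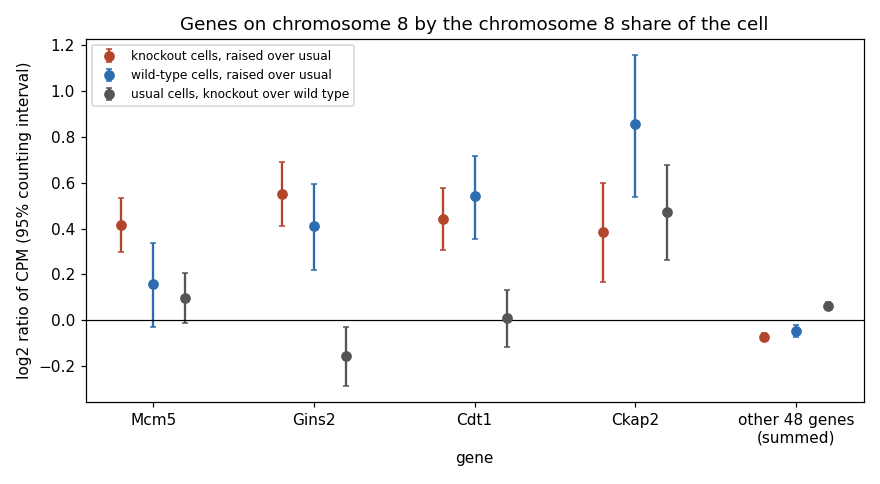
Log2 ratio of CPM with 95% counting intervals for the 4 members on chromosome 8 and the sum of the other 48: cells of raised over usual chromosome 8 share in knockout (red) and wild type (blue), and knockout over wild type among usual cells (grey). The 4 genes were higher in cells of raised share, though the wild-type interval of Mcm5 reaches 0, and among usual cells Ckap2 kept a ratio of 0.47.

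A further difference in makeup was the cells with at least 2 UMIs of the primitive endoderm list, 189 in knockout (25.9%) and 25 in wild type (2.80%), with 52 and 12 cells at exactly 2 UMIs. In these knockout cells the S genes summed to 2298 CPM, against 2654 in the remaining knockout cells (log2 ratio -0.21, -0.24 to -0.18), whereas the G2/M genes stood at 3210 and 3187 CPM (0.01, -0.02 to 0.04). In the 25 wild-type cells the G2/M genes were lower, at 2328 CPM (2215 to 2444) against 3157 in the remaining wild-type cells, and the S genes stood at 2245 CPM (2135 to 2360) against 2453. Mki67 was higher in the knockout cells of that list (0.60, 0.42 to 0.77), and Anln had 0.25 (-0.03 to 0.52). Median depth was 25087 and 24307 UMIs in knockout and 28502 and 26646 in wild type. Without these cells in either library, the S median of knockout over wild type was 0.12 and the G2/M median 0.05, beside 0.05 over all genes.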

How the data were processed

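The deposited values are whole-number UMI counts per gene and cell, not normalised, in integer matrices per the file headers. The submitters' processing notes name Cell Ranger 2.0.0, Seurat 3.1.1 and mm10, with no role or order; how reads of near-identical, overlapping or antisense genes were counted, and how droplets were called cells, are not given in the sources used here. The labels name 1 library per genotype, and whether culture, clone or preparation differed between them cannot be told apart from genotype.

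The members and all lists were chosen with earlier results of these data known. All 52 members are named. Of each other list the 3 highest and 3 lowest in log2 ratio are named. The 8 genes most correlated with each sum, by the smaller r of the libraries, are named too. Ratios are of CPM from UMIs summed over kept cells, with 0.5 counts added, with genes averaging 10 CPM or more in the summaries. As that limit is on the mean of both libraries, a gene can meet it through 1 library only, as Myc did through knockout and Ndc80 through wild type. A 1.3-fold limit stands in for a call. Intervals are exact, Poisson or conditional on the total. Thinning was repeated 10 times and averaged. Scrublet (scanpy 1.11.5, 0.8% per 1000 cells) called 2 knockout and 5 wild-type cells doublets, of which 1 and 5 were among kept cells. These kept cells stayed in except in 1 alternative, and other doublets may remain. Positions came from GENCODE (GRCm38), matched by identifier for 27645 of 27998 genes (98.7%). TMM factors came from edgeR 4.0.16. The count and correlation code was tested on simulated data. Alternatives cover cells, scaling, weighting, thinning depth, filters and measure; 2 choices of cells, and the recomputed correlation of sums, were added after the data were seen.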

Additional observations from a re-analysis of the deposited data

Results flagged for a closer look

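The main values leave out cells under 1% mitochondrial UMIs, and both lists were detected there. In the 244 such knockout cells with at least 1000 genes and fewer than 5 fibroblast UMIs, the S genes summed to 3281 CPM (3215 to 3349), against 2558 CPM in the kept knockout cells, and the G2/M genes to 4202 CPM (4127 to 4278), against 3193 CPM. The log2 ratios were 0.36 (0.33 to 0.39) and 0.40 (0.37 to 0.42). These cells are shallower, with a median of 8632 UMIs against 24423, and the part of depth and RNA quality in these values was not tested. In wild type 16 such cells gave 2129 and 3972 CPM, from 609 and 1136 UMIs.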

How the results depend on the processing

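No paired analysis was possible because there is 1 library per genotype. Of 198 comparisons of the list summaries with an alternative, 176 stayed within 0.1 on the log2 scale, 0.02 in correlation or 1.5 times in count, and 22 did not; the cause was not tested except where named. Members at least 1.3-fold higher numbered 5 without cells of raised chromosome 8 share. There 23.4% of all genes were that far higher, against 17.3% with those cells. Such members numbered 1 when the floor on mean level was 50 CPM. That filter leaves fewer genes, and the share of all genes that far higher was also below 17.3% there. TMM and median-of-ratios factors gave S medians of -0.00937 and -0.0212 and G2/M medians of -0.0387 and -0.0506, as the median of all genes moved too. With fibroblast-UMI cells kept, knockout pair medians were 0.0990 within S, 0.134 within G2/M and 0.0334 across lists. Thinning to 5000 UMIs gave 0.0567 (knockout) and 0.0555 (wild type) within G2/M, and no thinning gave 0.291 and 0.313 within S, 0.270 and 0.289 within G2/M, and 0.187 and 0.20 across lists, where depth is shared. A floor of 0.2 thinned UMIs gave 0.0663 and 0.0564 within G2/M, and a floor of 1 gave 0.0958 within S in knockout. Excess variation in place of CV2 gave median log2 ratios of 0.22 for S and -0.16 for G2/M genes. The 0 members 1.3-fold lower held in all 16 alternatives. Of single-gene values 688 stayed within the counting interval of the main value and 144 moved. The floors of 1 and 50 CPM change no gene's ratio, so the values under them stayed by construction. The correlation of the S and G2/M sums took the other sign without cells under 1000 CPM in both lists (-0.122 in knockout, -0.067 in wild type), and in wild type without primitive endoderm list cells (-0.019), also with raised chromosome 8 cells left out (-0.0051); under the other choices of cells it lay between 0.003 and 0.549. Low-count members (Cdc45, Ccne2) are limited by depth.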

Other observations

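Within the 244 knockout cells under 1% mitochondrial UMIs the members did not stand on 1 side of the kept knockout cells. Relative to these, Cdc45 (log2 ratio 1.41), the mitotic exit activator Cdc20 (1.36), Cdk1 (1.27), Rrm2 (1.18), Ube2c (1.14) and Ccnb1 (1.14) were higher. The cytokinetic ring gene Anln (-3.45, 7 UMIs), the Cdt1 ligase gene Dtl (-3.03), Mki67 (-2.76, 26 UMIs), the spindle gene Hmmr (-2.35), Cenpf (-2.03) and Top2a (-1.89) were lower. At least 2-fold lower were 1 of 24 S genes (4.17%) and 10 of 27 G2/M genes (37.0%), beside 29.9% of 6549 genes with at least 10 CPM and a transcript length. Over the 51 members this ratio had a Spearman rho of -0.66 with the longest annotated transcript, and over the 6549 genes -0.49. The kept-cell ratio of knockout over wild type had rho 0.40 with that length over the members (S 0.19, G2/M 0.54) and 0.31 over all genes. Genes are not independent replicates, and these are descriptions of the same libraries. With these cells included, Cdc20 was past 1.3-fold (0.38) and Anln and Mki67 were not.

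The cells with at least 5 fibroblast UMIs, 22 in knockout and 10 in wild type, carried far fewer UMIs of both lists. Their S genes summed to 198 and 436 CPM and their G2/M genes to 189 and 781 CPM, log2 ratios to the kept cells of -3.68 and -2.48 for S and -4.08 and -2.00 for G2/M. At equal depth their median was 2 and 2.5 UMIs for S and 1 and 2.5 for G2/M, over 17 and 6 cells.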
